A study of Homo sapiens with 6 samples.

Results

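The sterol regulatory element-binding protein (SREBP) programme was followed through OVCAR8 cells, an established human high-grade serous ovarian cancer line, after DZNep treatment or EZH2 silencing. A list of 52 genes of sterol and fatty acid synthesis, with the regulators and transporters around them, was used. Genes entered the comparison when their deposited value was 10 or more in at least 2 of the 6 samples. By this rule 48 of the 52 listed genes were members, among 9671 genes that passed the same filter of 14930 in the matrix. SC5D (1 to 2), ACACB (5 to 9) and ACSL1 (7 to 13, reaching 10 in 1 sample) lay below the filter, and NPC1L1 was not analysed here. Of the members nearest to the limit, ELOVL7 ranged from 6 to 11 and HSD17B7 from 3 to 11. HSD17B7 was the 1 member that passed through the control samples alone.

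The RNA-seq samples formed 3 groups of 2, all described as taken after 72 h. The control samples (Ctrl) received DMSO, the vehicle. The DZNep samples received 3-deazaneplanocin A, an inhibitor of S-adenosylhomocysteine hydrolase that lowers EZH2 protein along with other methyltransferase activity, at a dose of 5, given in μM in the study's methods and in mM in the sample labels. The shEZH2 samples carried a lentiviral short hairpin against EZH2, switched on by doxycycline at 1 μg/mL by the study's methods (mg/mL in the labels), and came from a single hairpin line. The labels do not say whether the controls were the parental line or the uninduced hairpin line, and no doxycycline-treated control was analysed here, so effects of doxycycline and of the hairpin cannot be told apart. Nothing in the labels says that the 2 samples of a group came from separate cultures, so p-values measure the spread between these samples, which may be technical.

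The deposited values were whole numbers summing to between 999956 and 1000068 per sample. They are therefore relative abundances on a common total and not read counts, and the sequencing depth behind them is unknown. How they were scaled for transcript length is not given in the sources used here, so levels are compared between samples and not between genes. Of the epithelial markers, KRT7, KRT8 and KRT18 were above 300 in every sample and the Müllerian factor PAX8 lay between 10 and 19, whereas WT1 was at 1 to 2, EPCAM at 5 to 12 and CDH1 at 0 to 8. KRT8 (1021 and 816 in the controls, 3540 and 3046 with DZNep, 1484 and 1494 with shEZH2) and KRT18 (1392 and 1080, 4398 and 3793, 1591 and 1592) were highest with DZNep, and KRT7 ranged from 350 to 597. Among markers of other cell types, LUM, VWF and CIDEC stayed at 2 or less and the fibroblast collagen COL1A1 lay between 9 and 16. CD68 (70 and 65 in the controls, 18 and 15 with DZNep, 32 and 28 with shEZH2) and PDGFRB (12 and 11, 56 and 42, 37 and 34) also moved with the groups. The part of any of these markers in the results was not tested.

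SREBPs are membrane-bound transcription factors that are made in the endoplasmic reticulum together with the escort protein SCAP. When sterols are plentiful, INSIG proteins hold SCAP and SREBP in that membrane, and when sterols fall the complex moves to the Golgi, where the factor is cut free to enter the nucleus. SREBP-2, the product of SREBF2, is best known for the mevalonate and cholesterol genes, and the SREBP-1 proteins from SREBF1 for fatty acid synthesis and desaturation. INSIG1 and both SREBF genes are themselves classical targets, so their messages are often read as part of the programme.

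To show stretches that resemble the consensus of the sterol regulatory element beside members discussed here, short windows were taken from RefSeq promoters on GRCh38.p14 (250 bases before to 50 after an annotated start). They are matches of letters, and binding of these factors to them was not tested. Capitals mark the 9 letters that match the sterol regulatory element consensus TCACNCCAC on either strand, and the sequences are written 5′ to 3′ along the gene. The SREBF2 window (chr22:41832962-41832990, plus strand) held the consensus exactly. The INSIG1 (chr7:155297760-155297788), FADS2 (chr11:61815973-61816001), MSMO1 (chr4:165327503-165327531) and ACSS2 (chr20:34876364-34876392) windows, all on the plus strand, held it with 1 mismatch. The SCD window (chr10:100347109-100347137, plus strand) held it with 1 mismatch on the opposite strand.
SREBF2: tgacgcgccaTCACCCCACgcaccgcttc
INSIG1: cggggcaagcTCAGGCCACgcccctgggc
FADS2: cctccagtctTCACACGACgcaggggtcc
MSMO1: ctcactatccTCACTCCATccgcggagcc
ACSS2: ccttctgcttTCACTCGACggcgtcactc
SCD: cagaggccggGTGGTGTGGtgtcggtgtc

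Promoter windows were found for 47 of the 52 listed genes, with 68 windows in all because several genes have more than 1 start. The exact consensus lay in 2.94% of these windows (SREBF2 and ACSL1) and in 1.13% of all 35116 windows in the table. With 1 mismatch allowed, a search added after the values were seen, it lay in 35.3% of the listed genes' windows and in 24.5% of all windows. The CCAAT box, bound by NF-Y, was present in 55.9% against 34.6%, and the GGGCGG box, bound by Sp1, in 83.8% against 45%. Windows of members that fell with DZNep and of members not called were close in CCAAT (55.9% and 58.3%) and GGGCGG (88.2% and 91.7%). The exact consensus lay in 0 of 34 and 1 of 24 of these windows, and with 1 mismatch allowed in 41.2% and 20.8%. All motifs were searched on both strands and may overlap. These matches describe letters within a short window and carry no test.

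EZH2, the targeted gene, was at 36 and 42 in the controls, 26 and 26 with DZNep and 18 and 18 with shEZH2. Both treated groups lay below both controls. The log2 fold change was -0.63 ± 0.18 (SE, limma adjusted p = 0.026) with DZNep and -1.12 ± 0.18 (limma adjusted p = 0.016) with shEZH2. Of 16 alternative settings, described below, EZH2 was called in 10 with DZNep and in 13 with shEZH2. Both calls were lost in the settings with 1 shEZH2 sample or with the shEZH2 samples averaged. The log2 fold changes ran from -0.75 to -0.51 with DZNep and from -1.15 to -0.97 with shEZH2. Here and below, fold changes and p-values come from limma fitted to log2(scaled value + 1) of all 6 samples, with Benjamini-Hochberg adjustment over the 9671 genes, and a gene is said to fall or rise when its adjusted p was under 0.05. Percentages of control are ratios of the group means of the scaled values, taken before the log2 step. Groups are said to overlap or not on the scaled values.

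With DZNep, 28 of the 48 members fell and 0 rose, by limma with adjustment, in a comparison in which 20.4% of all tested genes fell and 22.4% rose. At an unadjusted limma p under 0.05, 29 members were lower and 0 higher, against 24.6% and 26.5% of all tested genes. The median log2 fold change of the members was -0.78, against 0.02 over all tested genes. Without HSD17B7, which entered through the control samples alone and so had to be lower elsewhere, 27 of 47 fell with a median of -0.73. With shEZH2, 14 members fell and 0 rose, in a comparison in which 4.53% of all tested genes fell and 3.91% rose; at an unadjusted limma p under 0.05 the counts were 22 lower and 2 higher, against 13.3% and 14.9% of all tested genes. The median was -0.45, against -0.01 over all tested genes. Both comparisons share the same control samples. By the thresholds of the study's methods (absolute log2 fold change above 1 and unadjusted p under 0.05), here applied to limma, 20 members were lower with DZNep, where 11.8% of all tested genes were lower and 10.5% higher, and 7 with shEZH2, where 3.03% were lower and 2.27% higher; 0 members were higher in either. On the scaled values, 32 members had both DZNep samples below both controls (30.8% of all tested genes) and 32 had both shEZH2 samples below them (31.6%). HSD17B7, which had to be lower outside the controls, is among the 32 in each comparison. It is also among the 29 and the 20 given above for DZNep and the 22 for shEZH2. Summed over the 51 listed genes in the matrix, the deposited values came to 5751 and 6176 in the controls, 2775 and 3159 with DZNep and 3964 and 3712 with shEZH2. On these unscaled sums the 3 groups did not overlap. The sums take in SC5D, ACACB and ACSL1, which lay below the filter, and genes with higher values weigh more in them.

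Of the 28 members that fell with DZNep, 23 were called under each of the 16 alternative settings in which they were tested (22 without HSD17B7). These settings all keep the rule of an adjusted p under 0.05, so the study's thresholds are not among them. The remaining 5 members, FDPS, ELOVL5, HACD3, TECR and LPIN1, lost the call under at least 1 of them. Without either shEZH2 sample all 5 lost it, with their log2 fold changes unchanged. The shEZH2 samples enter the shared estimate of the spread, and the cause of the loss was not tested. The shEZH2 count moved more. The 2 shEZH2 samples were closer to each other (SD of the replicate difference over members 0.11 on the log2 scale) than the 2 controls (0.41) or the 2 DZNep samples (0.45). Without either shEZH2 sample, or with both averaged into 1, 2 members kept the call, FADS1 and FADS2. The other 12 then had limma adjusted p-values between 0.059 and 0.38 on leaving 1 sample out, with the direction unchanged. Without Ctrl replicate 2, 9 members were called lower, and CYP51A1, ELOVL2, HMGCS1, SCD, SCD5 and SQLE were not among them. Without any scaling between samples, the share of rises among all called genes went from 52.3% to 62.2% with DZNep and from 46.3% to 66.0% with shEZH2. The members then gained 0 rises with DZNep and 1 with shEZH2 (SREBF2). Of the 28 falls with DZNep, 26 kept the call, and ELOVL5 and HACD3 lost it. Of the 14 with shEZH2, 9 kept it. CYP51A1, ELOVL2, HMGCS1, IDI1 and MSMO1 lost it, and AACS and FDFT1 were newly called lower.

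**Figure D1:**
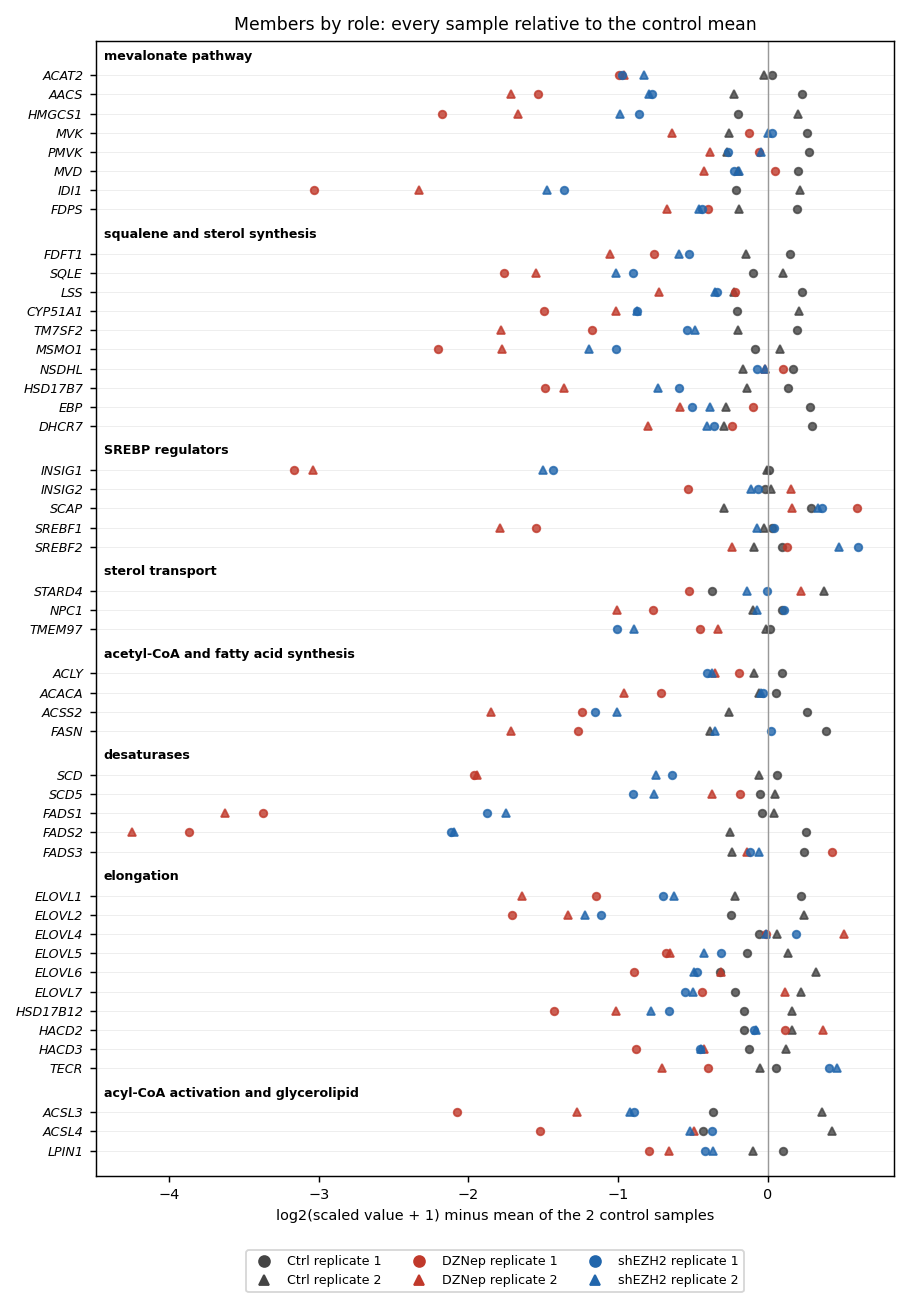
Each member in each of the 6 samples, as log2(scaled value + 1) minus the mean of the 2 control samples on the x axis, with genes grouped by role on the y axis; circles are replicate 1 and triangles replicate 2. INSIG1, FADS1 and FADS2 lie farthest to the left with DZNep, with the shEZH2 samples between DZNep and control.

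Among the regulators, INSIG1 showed the clearest change. INSIG1, the sterol-responsive anchor of SCAP, was at 211 and 234 in the controls, 23 and 30 with DZNep and 86 and 79 with shEZH2. The groups were fully separated, with shEZH2 in the middle. The level was 11.3% of control with DZNep (log2 fold change -3.10 ± 0.16, limma adjusted p = 3.5e-05) and 35.9% with shEZH2 (-1.47 ± 0.16, limma adjusted p = 0.0053; 0.059 to 0.069 without either shEZH2 sample). INSIG2, its paralogue that does not depend on sterols in the same way, was at 13 and 15, 9 and 18, and 14 and 13, with log2 fold changes of -0.19 and -0.09 that did not pass the test.

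The SREBP genes themselves did not move together. SREBF1 was at 40 and 43 in the controls, 13 and 13 with DZNep and 45 and 40 with shEZH2. It fell to 29.9% of control with DZNep (log2 fold change -1.67 ± 0.18, limma adjusted p = 0.00045), whereas the shEZH2 samples overlapped the controls (-0.02 ± 0.18, limma adjusted p = 0.96, 95% interval -0.44 to 0.40). SREBF2 was at 47 and 46, 49 and 45, and 75 and 66, so that DZNep overlapped control and shEZH2 lay above both. The SREBF2 difference with shEZH2, 0.54 ± 0.19, had a limma adjusted p of 0.11 and passed the threshold with the values left unscaled (limma adjusted p = 0.049). SCAP, the escort protein, was at 46 and 34, 58 and 51, and 54 and 51, with log2 fold changes of 0.38 (limma adjusted p = 0.24) and 0.35 (limma adjusted p = 0.38). Without Ctrl replicate 1, SCAP was called higher with DZNep (limma adjusted p = 0.049), the 1 member with a rise under any setting of that comparison.

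The mevalonate pathway makes the isoprenoid units from acetyl-CoA. Of its 8 members, 5 fell with DZNep and 3 with shEZH2. IDI1, which isomerises isopentenyl diphosphate, was at 200 and 301 in the controls, 28 and 55 with DZNep and 100 and 89 with shEZH2. No values overlapped between groups, and IDI1 stood at 15.5% (log2 fold change -2.68 ± 0.26, limma adjusted p = 0.00027) and 36.8% of control (-1.42 ± 0.26, limma adjusted p = 0.02). HMGCS1, which makes HMG-CoA, was at 134 and 198, 34 and 58, and 94 and 83, with log2 fold changes of -1.92 ± 0.22 (limma adjusted p = 0.00057) and -0.92 ± 0.22 (limma adjusted p = 0.046). Its order was the same as that of IDI1, with shEZH2 between DZNep and control.

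The entry steps fell as well. ACAT2, the cytosolic thiolase that joins acetyl-CoA units, was at 109 and 117, 54 and 66, and 60 and 64. It was near to 50.3% of control with DZNep (limma adjusted p = 0.0022) and 53.1% with shEZH2 (limma adjusted p = 0.019), and here the DZNep and shEZH2 samples overlapped. AACS, which activates acetoacetate for lipid synthesis, was at 69 and 56, 20 and 21, and 38 and 36. It fell with DZNep (-1.62 ± 0.21, limma adjusted p = 8e-04), and with shEZH2 its log2 fold change of -0.78 had a limma adjusted p of 0.055 and passed the threshold without Ctrl replicate 2 or either DZNep sample (limma adjusted p from 0.037 to 0.04).

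The middle kinases and the decarboxylase did not pass the test in either comparison. MVK, mevalonate kinase, was at 76 and 59, 59 and 49, and 72 and 68. PMVK, phosphomevalonate kinase, was at 20 and 15, 16 and 15, and 15 and 17, and MVD, the decarboxylase, at 129 and 109, 118 and 101, and 107 and 105. Their log2 fold changes ranged from -0.38 to 0.01, and both treated groups overlapped the controls for all 3. FDPS, farnesyl diphosphate synthase, at 298 and 255, 201 and 198, and 214 and 203, had a log2 fold change of -0.54 ± 0.19 with DZNep at the edge of the threshold (limma adjusted p = 0.0498, and 0.21 without Ctrl replicate 1) and -0.45 with shEZH2 (limma adjusted p = 0.16).

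Squalene and sterol synthesis turns farnesyl diphosphate into cholesterol. Of its 10 members, 6 were called lower with DZNep, HSD17B7 included, and 3 with shEZH2. MSMO1, the sterol C4-methyl oxidase, was at 114 and 143 in the controls, 26 and 42 with DZNep and 66 and 56 with shEZH2, with log2 fold changes of -1.99 ± 0.20 (limma adjusted p = 0.00032) and -1.11 ± 0.20 (limma adjusted p = 0.019). SQLE, squalene epoxidase, a slow step of the pathway, was at 238 and 306, 76 and 105, and 152 and 135. It stood at 31.5% of control with DZNep (limma adjusted p = 0.00033) and 51.2% with shEZH2 (limma adjusted p = 0.019), and for both genes the 3 groups were separated.

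CYP51A1, the lanosterol demethylase, was at 119 and 177, 49 and 82, and 83 and 80, or 41.7% (limma adjusted p = 0.0032) and 53.7% of control (limma adjusted p = 0.049). FDFT1, squalene synthase, was at 306 and 278, 165 and 161, and 213 and 196, with log2 fold changes of -0.91 (limma adjusted p = 0.0054) and -0.56 (limma adjusted p = 0.089). TM7SF2, a sterol reductase, was at 32 and 27, 12 and 9, and 21 and 21, with log2 fold changes of -1.48 (limma adjusted p = 0.0029) and -0.51 (limma adjusted p = 0.23). For these 3 genes both treated groups lay below both controls. HSD17B7, a sterol ketoreductase, was at 11 and 10, 3 and 4, and 7 and 6, with a DZNep log2 fold change of -1.43. It passed the filter through its control values alone and rests on few units of a rounded scale, so no test of it is given, and reads from its pseudogene copy may not be separable.

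The other sterol enzymes did not pass the test. LSS, lanosterol synthase, was at 141 and 115, 105 and 88, and 106 and 101, and EBP, the sterol isomerase, at 109 and 82, 85 and 72, and 70 and 73. DHCR7, the last reductase of one branch, was at 193 and 143, 135 and 109, and 136 and 127. Their log2 fold changes lay between -0.52 and -0.34 in both comparisons. With the replicate number as a block in the model, LSS and DHCR7 were called lower with DZNep (limma adjusted p = 0.02 and 0.0098). With DZNep, LSS was called lower without DZNep replicate 1 (limma adjusted p = 0.045), and DHCR7 without Ctrl replicate 2 (0.034) or DZNep replicate 1 (0.048). NSDHL, which acts in C4 demethylation beside MSMO1, was at 33 and 29, 32 and 35, and 31 and 31, with log2 fold changes of 0.04 and -0.04, so it overlapped control in both treated groups.

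Of the 3 tested genes of sterol transport, 1 fell in each comparison, in different genes. Of all tested genes, 20.4% fell with DZNep and 4.53% with shEZH2. NPC1, which moves cholesterol out of lysosomes, was at 40 and 39 in the controls, 22 and 22 with DZNep and 45 and 38 with shEZH2. It fell to 53.1% of control with DZNep (log2 fold change -0.89 ± 0.19, limma adjusted p = 0.0075), while the shEZH2 samples overlapped the controls (0.02 ± 0.19, limma adjusted p = 0.96). TMEM97, the sigma-2 receptor and a partner of NPC1, was at 41 and 45, 30 and 39, and 22 and 23. It fell with shEZH2 (-0.95 ± 0.17, limma adjusted p = 0.02) and was at 75.8% of control with DZNep (-0.39 ± 0.17, limma adjusted p = 0.1); the direct difference of -0.56 between the treated groups had a limma adjusted p of 0.08. STARD4, a cytosolic sterol carrier, was at 22 and 42, 20 and 41, and 32 and 28, with a wide gap between the replicates of the control and DZNep groups and overlap of all groups.

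**Figure D2:**
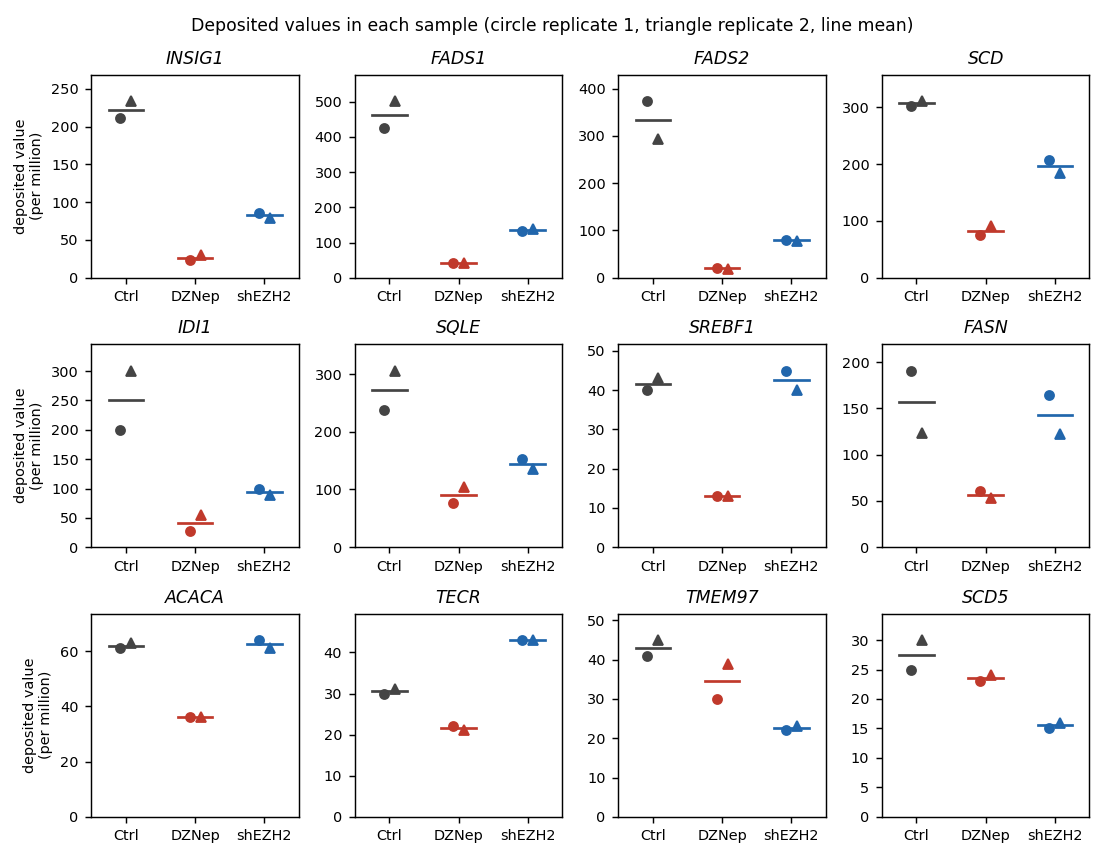
Deposited values (relative abundance on a common total per sample, linear axes from 0) of 12 members in each sample, with circles for replicate 1, triangles for replicate 2 and a line for the mean of 2. INSIG1, FADS1, FADS2, SCD, IDI1 and SQLE step down from Ctrl to shEZH2 to DZNep, SREBF1, FASN and ACACA are low with DZNep alone, and TMEM97 and SCD5 are lowest with shEZH2.

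Messages of the fatty acid synthesis enzymes ACACA and FASN were lower with DZNep. ACACA, acetyl-CoA carboxylase, was at 61 and 63 in the controls, 36 and 36 with DZNep and 64 and 61 with shEZH2. FASN, fatty acid synthase, was at 191 and 124, 61 and 53, and 165 and 122. In both genes DZNep lay below every other sample, and shEZH2 overlapped control. ACACA was at 55.4% of control with DZNep (log2 fold change -0.84 ± 0.17, limma adjusted p = 0.0064) and 97.4% with shEZH2 (limma adjusted p = 0.91). FASN was at 34.3% (-1.49 ± 0.29, limma adjusted p = 0.0048) and 86.7% (-0.17 ± 0.29, limma adjusted p = 0.74).

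The 2 sources of acetyl-CoA differed from each other. ACSS2, which makes it from acetate, was at 35 and 27, 12 and 9, and 14 and 15, and fell in both comparisons (-1.54 ± 0.27, limma adjusted p = 0.0032, and -1.08 ± 0.27, limma adjusted p = 0.049). ACLY, which makes it from citrate, was at 505 and 494, 420 and 449, and 398 and 391. Its log2 fold changes were -0.27 (limma adjusted p = 0.2) and -0.39 (limma adjusted p = 0.16), and although both treated groups lay below both controls, neither passed the test.

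The desaturases held the widest changes of all members. FADS1, the delta-5 desaturase of polyunsaturated fatty acid synthesis, was at 425 and 502 in the controls, 42 and 42 with DZNep and 132 and 139 with shEZH2. FADS2, the delta-6 desaturase, was at 374 and 294, 21 and 19, and 80 and 78. In each gene the 3 groups did not overlap. FADS1 stood at 8.7% of control with DZNep (log2 fold change -3.50 ± 0.16, limma adjusted p = 3.5e-05) and 28.4% with shEZH2 (-1.81 ± 0.16, limma adjusted p = 0.0028). FADS2 stood at 5.7% (-4.06 ± 0.22, limma adjusted p = 3.5e-05) and 22.7% (-2.10 ± 0.22, limma adjusted p = 0.0048). These were the 2 members called in all 16 alternative settings of every comparison.

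The FADS genes lie in a cluster on chromosome 11. On GRCh38 with GENCODE v44, FADS2 spans 61792980 to 61867354 on the plus strand, FADS1 spans 61799627 to 61829318 on the minus strand inside the FADS2 span, and FADS3 spans 61873519 to 61892051 on the minus strand. The library kit keeps strand, but whether strand was used in counting is not given in the sources used here, so reads of the overlapping FADS1 and FADS2 may not be fully separable. FADS3, the remaining gene of the cluster, was at 113 and 90, 131 and 105, and 98 and 98, with log2 fold changes of 0.14 (limma adjusted p = 0.65) and -0.09 (limma adjusted p = 0.83). FEN1, a DNA repair nuclease gene, was looked up for its position after the FADS values were seen. It spans 61792911 to 61797238 on the plus strand, so most of it lies inside the FADS2 span on the same strand. Reads of FEN1 and FADS2 may therefore not be fully separable either, even with strand kept. FEN1 was at 111 and 111, 269 and 298, and 133 and 138. It rose with DZNep (1.27 ± 0.16, limma adjusted p = 0.00072), and had a log2 fold change of 0.24 with shEZH2 (limma adjusted p = 0.36). TMEM258 and MYRF, chosen in the same way, had DZNep log2 fold changes of 0.29 and 0.19 that did not pass the test.

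SCD, the delta-9 desaturase that makes monounsaturated fatty acids, was at 303 and 311, 75 and 91, and 207 and 185. It was at 25.6% of control with DZNep (-1.95 ± 0.15, limma adjusted p = 0.00012) and 61.6% with shEZH2 (-0.70 ± 0.15, limma adjusted p = 0.033). SCD5, its paralogue, had another order, at 25 and 30, 23 and 24, and 15 and 16. It fell with shEZH2 (-0.83 ± 0.19, limma adjusted p = 0.036) and was at 81.8% of control with DZNep (limma adjusted p = 0.25). The direct difference for SCD5 was -0.55 (limma adjusted p = 0.1).

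Fatty acid elongation runs in a cycle of a condensing ELOVL enzyme, a ketoreductase, a dehydratase and an enoyl reductase. Of the 10 members, 6 fell with DZNep and 1 with shEZH2. ELOVL2, which elongates long polyunsaturated chains, was at 45 and 71, 16 and 25, and 27 and 24, and fell in both comparisons (-1.52 ± 0.23, limma adjusted p = 0.0017, and -1.17 ± 0.23, limma adjusted p = 0.025). ELOVL1, which acts on saturated very long chains, was at 113 and 93, 44 and 37, and 66 and 67, with log2 fold changes of -1.39 (limma adjusted p = 0.0023) and -0.67 (limma adjusted p = 0.1). ELOVL5, the polyunsaturated elongase that follows FADS2, was at 128 and 173, 89 and 108, and 126 and 112, with log2 fold changes of -0.67 (limma adjusted p = 0.014) and -0.37 (limma adjusted p = 0.19). In all 3 the treated groups lay below both controls.

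ELOVL4, ELOVL6 and ELOVL7 did not pass the test. ELOVL6, which lengthens palmitate and is often grouped with SREBP-1 targets, was at 18 and 32, 12 and 22, and 18 and 17, with log2 fold changes of -0.60 (limma adjusted p = 0.12) and -0.48 (limma adjusted p = 0.3). With the replicate number as a block in the model, ELOVL6 was called lower with DZNep (limma adjusted p = 0.014). It was called lower with DZNep without Ctrl replicate 1 (limma adjusted p = 0.025) or DZNep replicate 2 (0.039). ELOVL4, of very long chains, was at 18 and 22, 19 and 33, and 24 and 20, and ELOVL7 at 7 and 11, 6 and 11, and 6 and 6. In all 3 the DZNep samples overlapped the controls.

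The remaining cycle enzymes were mixed. HSD17B12, the ketoreductase, was at 32 and 45, 13 and 21, and 25 and 22, with log2 fold changes of -1.22 (limma adjusted p = 0.0035) and -0.72 (limma adjusted p = 0.077, and 0.042 without either DZNep sample). HACD3, a dehydratase, was at 217 and 288, 130 and 213, and 192 and 186, with log2 fold changes of -0.66 (limma adjusted p = 0.028) and -0.45 (limma adjusted p = 0.18). HACD2, another dehydratase, was at 30 and 42, 37 and 53, and 35 and 34, with log2 fold changes of 0.24 and -0.09, and overlapped control in both treated groups. TECR, the enoyl reductase, was at 30 and 31, 22 and 21, and 43 and 43, below control with DZNep (-0.55 ± 0.19, limma adjusted p = 0.045) and above both controls with shEZH2 (0.43 ± 0.19, limma adjusted p = 0.18).

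Acyl-CoA synthetases trap fatty acids in the cell, and LPIN1 makes diacylglycerol. ACSL3, the synthetase of the endoplasmic reticulum and lipid droplets, was at 131 and 243 in the controls, 40 and 84 with DZNep and 101 and 95 with shEZH2. It fell with DZNep (-1.68 ± 0.31, limma adjusted p = 0.0041), and its shEZH2 log2 fold change of -0.91 had a limma adjusted p of 0.1, and of 0.03 without Ctrl replicate 1. ACSL4, which prefers arachidonate, was at 112 and 228, 53 and 130, and 130 and 113, with log2 fold changes of -1.01 (limma adjusted p = 0.058) and -0.44 (limma adjusted p = 0.47). With the replicate number as a block in the model, ACSL4 was called lower with DZNep (limma adjusted p = 1.3e-05). ACSL4 was called lower with DZNep without Ctrl replicate 1 (limma adjusted p = 0.0091) or DZNep replicate 2 (0.00875). In both genes replicate 2 was much above replicate 1 in the control and DZNep groups. LPIN1 was at 30 and 29, 16 and 21, and 23 and 23, with log2 fold changes of -0.73 (limma adjusted p = 0.015) and -0.39 (limma adjusted p = 0.21).

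**Figure D3:**
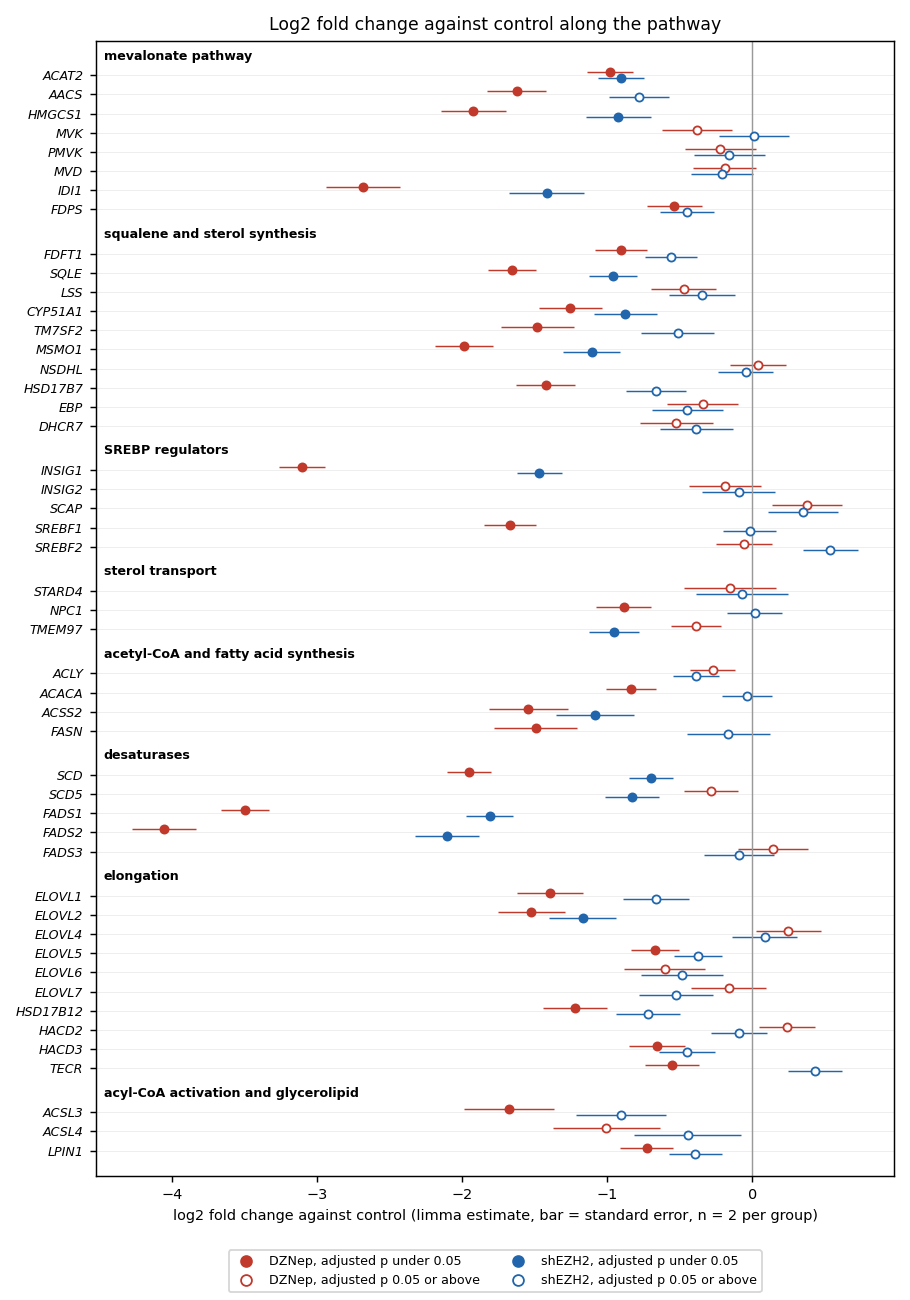
Log2 fold change of each member against control by limma (x axis; bars are standard errors, 2 samples per group), grouped by role, in red for DZNep and blue for shEZH2, filled where the adjusted p was under 0.05. Filled points number 28 for DZNep and 14 for shEZH2, and all lie left of 0.

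Set side by side, 12 members fell in both comparisons with control and 18 in neither. By the threshold 16 fell with DZNep only, HSD17B7 among them, and 2 with shEZH2 only (TMEM97 and SCD5). Of all tested genes, 20.4% fell with DZNep and 4.53% with shEZH2. The share that fell in both is not given here and the comparisons share their controls, so the 12 has no background beside it. A threshold passed in one comparison and missed in the other does not show a difference, so the 2 treated groups were compared directly. Of the 48 members, 14 were higher with shEZH2 than with DZNep and 0 lower by limma with adjustment, in a comparison in which 4.88% of all tested genes were higher and 4.42% lower. At an unadjusted limma p under 0.05, 19 were higher and 2 lower, where 13.4% of all tested genes (1300 of 9671) were higher and a further 1350 of 9671 lower. By the thresholds of the study's methods 7 were higher and 0 lower, against 3.42% and 2.10% of all tested genes. The median difference was 0.37 on the log2 scale, against 0.00 over all tested genes.

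In 8 of these 14 members both treatments lowered the message and DZNep lowered it more, namely HMGCS1, IDI1, SQLE, MSMO1, INSIG1, SCD, FADS1 and FADS2. The direct difference was 1.95 ± 0.22 for FADS2 (limma adjusted p = 0.0041), 1.69 ± 0.16 for FADS1 (limma adjusted p = 0.0032), 1.64 ± 0.16 for INSIG1 (limma adjusted p = 0.003) and 1.26 ± 0.15 for SCD (limma adjusted p = 0.0051). In the other 6 the fall was called with DZNep and not with shEZH2, namely AACS, SREBF1, NPC1, ACACA, FASN and TECR. Here the direct difference was 1.65 ± 0.18 for SREBF1 (limma adjusted p = 0.004), 1.33 ± 0.29 for FASN (limma adjusted p = 0.031) and 0.80 ± 0.17 for ACACA (limma adjusted p = 0.03). INSIG1, SREBF1, FADS1 and FADS2 were called in all 16 alternative settings. Without either shEZH2 sample those 4 alone were called, and the other 10 had limma adjusted p-values between 0.066 and 0.41. Without DZNep replicate 1, AACS, HMGCS1, IDI1, MSMO1 and SQLE lost the call, and without DZNep replicate 2, AACS, ACACA, FASN and NPC1.

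For ACAT2, CYP51A1, ACSS2 and ELOVL2, which fell in both comparisons, no direct difference was called. Their differences between shEZH2 and DZNep ran from 0.08 to 0.46 on the log2 scale, with limma adjusted p-values from 0.31 to 0.81. TM7SF2 had a direct difference of 0.97 (limma adjusted p = 0.052) and ELOVL1 one of 0.73 (limma adjusted p = 0.083), and both were called without either control sample or DZNep replicate 1 (limma adjusted p from 0.026 to 0.047).

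Genes around the programme were taken from lists of neighbouring pathways. Their counts stand beside the 22.4% of all tested genes that rose and 20.4% that fell with DZNep, and the 3.91% and 4.53% with shEZH2, and no list was tested against these shares. Of 11 tested genes of the SREBP processing and degradation machinery, 4 rose and 2 fell with DZNep and 0 changed with shEZH2 by limma with adjustment. C12orf49, a factor needed for SREBP cleavage, rose from 47 and 45 to 107 and 112 (log2 fold change 1.16, limma adjusted p = 0.0015) and was at 60 and 58 with shEZH2. ERLIN2 (-1.09) and AUP1 (1.03), both of the degradation machinery of the endoplasmic reticulum, also changed with DZNep. Of 5 other sterol synthesis genes, 4 fell with DZNep and 1 with shEZH2. ACAT1, the mitochondrial thiolase and not an enzyme of the sterol chain itself, fell in both comparisons (-1.24, limma adjusted p = 0.0018, and -0.99, limma adjusted p = 0.024).

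Of 14 tested genes of the LXR arm, sterol efflux and storage, 1 rose and 3 fell with DZNep, and 1 rose with shEZH2. ABCA1, the cholesterol efflux pump and an LXR target, fell with DZNep (-1.64, limma adjusted p = 0.0018), as did NCEH1, a cholesteryl ester hydrolase (-1.26, limma adjusted p = 0.0013). In the isoprenoid branch, 1 of 12 tested genes rose and 3 fell with DZNep, and 2 fell with shEZH2, with COQ2 of ubiquinone synthesis at -1.77 and FNTB at 1.41 with DZNep. PDSS2, 1 of the 3, passed the filter through its control values alone (10 and 15, against 5 and 4 with DZNep and 8 and 8 with shEZH2).

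Of 9 genes that supply electrons and carbon to lipid synthesis, 3 rose and 2 fell with DZNep and 0 changed with shEZH2 by limma with adjustment. ME1, malic enzyme, had a log2 fold change of -1.28, SLC25A1, the citrate carrier, -1.12, and MID1IP1, an activator of acetyl-CoA carboxylase, 0.97. Of 12 genes of glycerolipid synthesis, droplets and lipolysis, 2 rose and 3 fell with DZNep and 0 changed with shEZH2, with AGPAT4 at -1.28, PLIN2 at 1.20 and AGPAT3 at -1.14. HACD1 (-1.55) was the 1 called gene of 2 tested relatives of members outside the list.

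The replicates of the control and DZNep groups differed in a shared manner. The log2 difference between replicate 1 and replicate 2 of the 48 members correlated between control and DZNep (Pearson r = 0.90), and the shEZH2 differences did not follow them (r = -0.23 with control and -0.33 with DZNep). Over all tested genes the same values were 0.79, -0.02 and -0.04. The difference followed the GC content of the canonical transcript, which ran from 34.4% in STARD4 to 65.5% in MVD, with r = 0.85 in the controls and 0.90 in DZNep but -0.22 in shEZH2. IDI1, ACSL3, ACSL4, HMGCS1 and STARD4, which are poor in GC, were higher in replicate 2, and FASN and DHCR7, which are rich in GC, in replicate 1. The fold changes of the members correlated with GC content by r = 0.07 with DZNep and 0.29 with shEZH2. These are descriptions across genes, which are not independent replicates.

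**Figure D4:**
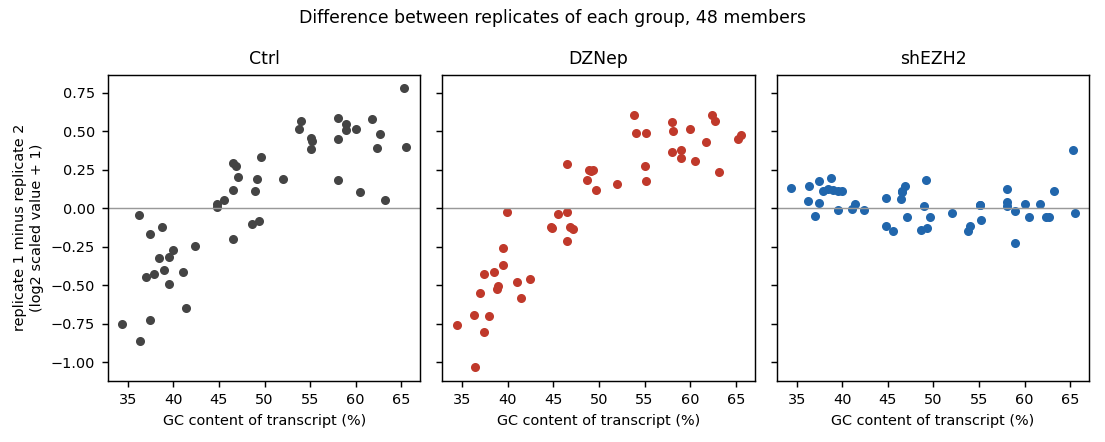
Difference between replicate 1 and replicate 2 in log2(scaled value + 1) (y axis) against the GC content of the canonical transcript in percent (x axis) for the 48 members, 1 panel per group. The points climb with GC content in Ctrl and DZNep (r = 0.85 and 0.90) and stay near 0 in shEZH2 (r = -0.22).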

How the data were processed

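RNA of OVCAR8 cells was sequenced by the authors after rRNA removal with a stranded kit; per the labels and the study's methods, reads were trimmed with fastp, aligned with STAR to GRCh38 and quantified with RSEM. The deposited values are whole numbers with nearly the same total in each sample, so they were treated as a score (a rounded relative abundance with no stated length scaling) and count tests were not used. This replaces the count test of the study's methods. Values were scaled by trimmed mean of M-values factors (30% of log ratios and 5% of means trimmed, unweighted; factors 0.920 to 1.12), filtered (10 or more in at least 2 samples), and log2-transformed with a pseudocount of 1. A single linear model with 3 group means was fitted with limma 3.58.1 (lmFit, eBayes with trend, two-sided) in R 4.3.3 and p-values were adjusted by Benjamini-Hochberg over 9671 genes. The script was tested on simulated data. Samples were grouped by their labels.

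All members could be named; of each neighbouring list, at most 3 genes with the largest called change against control. Some genes that this rule names are not reported here. The members, roles and lists were chosen with earlier results of these data known. Promoters came from RefSeq (GRCh38.p14), gene spans and GC content from GENCODE v44. Precision is limited by 2 samples per group and by unknown depth. The alternatives were other scalings, pseudocounts, filters, samples, variance models, call rules, a replicate block and leaving out each sample. The other call rule, the study's thresholds, was applied to counts of genes only and is not among the 16 settings per gene.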

Additional observations from a re-analysis of the deposited data

Results flagged for a closer look

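For NPC1 and TECR the estimates for DZNep and shEZH2 against the shared controls had opposite signs and the direct comparison passed the threshold. NPC1 was higher with shEZH2 than with DZNep by 0.90 on the log2 scale (limma adjusted p = 0.028), with log2 fold changes against control of -0.89 with DZNep and 0.02 with shEZH2, the latter close to no change. TECR was higher by 0.99 (limma adjusted p = 0.021), with -0.55 and 0.43. In both genes every shEZH2 sample lay above both DZNep samples. Without either shEZH2 sample the limma adjusted p rose to between 0.22 and 0.34 for NPC1 and between 0.22 and 0.24 for TECR.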

How the results depend on the processing

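No member that passed the test changed sign under any alternative run. The 16 settings that kept the adjusted p rule were tallied gene by gene. In each of them in which the gene was tested, 23 of 28 falls with DZNep, 2 of 14 with shEZH2 and 4 of 14 direct differences were called. Among members that did not pass, 9, 11 and 13 changed sign in at least 1 setting. Counts over all tested genes were 2163 higher and 1971 lower with DZNep, 378 and 438 with shEZH2, and 472 and 427 for shEZH2 against DZNep. With values as deposited, shEZH2 gave 812 genes higher, 1 of them a member, and the direct comparison 674 lower. A value of 10 or more in all samples, which left fewer genes tested, gave 140 and 152 with shEZH2 and 188 and 212 directly. Only the groups compared in the fit gave 775 and 761 with shEZH2 and 745 and 696 directly. With shEZH2 averaged, 2 members were lower with shEZH2 (10 and 29 over all genes) and 4 higher directly (35 and 39). The study's limits (absolute log2 fold change above 1, unadjusted p under 0.05) gave 1017 and 1144 with DZNep, 220 higher with shEZH2 with 7 members lower, and 203 lower directly with 7 members higher. The cause of these shifts was not tested.

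Leaving out 1 sample gave 23 to 29 members lower and 0 to 1 higher with DZNep (1457 to 2337 genes higher, 1513 to 2173 lower). It gave 2 to 17 members lower and 0 to 0 higher with shEZH2 (7 to 788 and 27 to 765 genes), and 4 to 17 members higher and 0 to 0 lower directly (40 to 756 and 39 to 691 genes).

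With the replicate number as a block, 32 members were lower with DZNep. The count over all tested genes for that comparison is not given here, so the 32 has no background beside it. With shEZH2, 22 members were lower and 1 higher (1367 genes lower and 1398 higher), where 438 genes were lower without the block. Directly, 20 members were higher and 2 lower (1351 and 1215 genes). HSD17B7 is among the 32 and the 22. The 4 members gained with DZNep were ACSL4, DHCR7, ELOVL6 and LSS (limma adjusted p from 1.3e-05 to 0.02), and the 1 rise with shEZH2 was SREBF2 (0.022). The numbers were not taken as pairing, because the replicate differences of shEZH2 did not follow those of control (r = -0.02 over all genes) or DZNep (-0.04). That reason covers the comparisons with shEZH2 only. The replicate differences of control and DZNep did follow each other (0.79, and 0.90 over the members). For DZNep against control, the test without a block therefore counts this shared difference as spread. Low values such as HSD17B7 are limited by rounding to whole numbers.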

Other observations

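Fatty acid oxidation, which breaks down what the members build, was also measured. Of 17 tested genes, 4 rose and 8 fell with DZNep and 1 rose and 3 fell with shEZH2 by limma with Benjamini-Hochberg adjustment, where 20.4% and 4.53% of all tested genes fell. CPT2, which passes acyl groups into the mitochondrial matrix, was at 48 and 41 in the controls, 6 and 7 with DZNep and 18 and 17 with shEZH2, with log2 fold changes of -2.67 (limma adjusted p = 1e-04) and -1.34 (limma adjusted p = 0.014). HADH, a dehydrogenase of the mitochondrial cycle, had log2 fold changes of -2.48 (limma adjusted p = 0.00037) and -1.11 (limma adjusted p = 0.04), and ACOX3, a peroxisomal oxidase, -1.91 (limma adjusted p = 0.00095) and -1.08 (limma adjusted p = 0.041). In all 3 genes both treated groups lay below both controls.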
